A study of Mus musculus with 35 samples.

Results

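The 9 genes described here, Sox10, Sox8, Foxd3, Tfap2a, Tfap2b, Tfap2c, Snai1, Snai2 and Ets1, encode the transcription factors known as neural crest specifiers. They were chosen by name, not by their values, out of 23366 genes in a table of read counts from 6 RNA-seq libraries of mouse cranial neural crest at embryonic stage E12.5. Utx (Kdm6a) is an X-linked gene for a histone demethylase that removes methyl groups from lysine 27 of histone H3. Both female knockout libraries came from Utx fl/fl embryos, both male knockout libraries from Utx fl/y embryos, and both wild-type libraries from male embryos with no floxed allele named in their labels. All 3 groups carried Wnt1-Cre and a Rosa-Tomato reporter, and Tomato-positive cells were flow sorted from the dissected head. The wild types are thus Cre carriers, so a comparison with them does not show an effect of the Cre itself. Because no wild-type female was among the 6 libraries, genotype and sex cannot be told apart in the comparison of female knockouts with wild types. The average of both knockouts carries this limit through its female part. Female and male knockouts also differ from each other in sex. Wnt1-Cre is also active in the dorsal neural tube, so the sort can hold cells other than crest.

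Neural crest cells arise at the border of the neural plate, leave the neural tube by an epithelial to mesenchymal transition and migrate to form facial skeleton, sensory and autonomic neurons, glia and pigment cells. Border genes such as Pax3, Msx1 and Zic1 act upstream, and the specifiers then switch on migration and keep the cells multipotent. At the stage sampled most cranial crest has finished migrating, and several specifiers are known to persist in only some of its descendants, such as Sox10 in glia. The comparisons with wild type address whether specifier transcripts differ when Utx is lost from these cells.

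The libraries held between 14513993 and 16350892 reads assigned to genes, and all 9 specifiers passed the filter on low counts, with between 111 and 2067 reads each. Values are CPM, read counts divided by the library size of each sample after scaling by the TMM method. Without that scaling the median gene would be lower by 0.10 (log2) in female knockouts and by 0.11 in male knockouts than in wild types. Xist was at 1589 and 2273 CPM in the female knockouts and at most 1.66 CPM in the 4 male libraries. The Y-linked genes Ddx3y, Eif2s3y, Kdm5d and Uty had 0 to 1 read each in the first female knockout library and 10 to 19 reads in the second, against 526 to 1310 reads in the male libraries. Kdm6a itself was at 52.9 and 62.4 CPM in female knockouts, 40.5 and 31.9 CPM in male knockouts and 45.6 and 51.5 CPM in wild types. Its counts cover the whole gene, including any part outside the deletion, so they check nothing about the genotype labels.

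The 6 libraries also differed in the share of reads that fell outside genes, and this split crossed the genotypes. One library of each genotype (second female knockout, first male knockout, second wild type) had 27.6, 27.7 and 27.9% of such reads, and the other library of each had 22.1, 22.1 and 21.5%. Each comparison of the specifiers between genotypes is therefore given from an edgeR model of genotype alone, which is the main test. A model that also holds this library split stands beside it. Nothing in the labels says that the 2 libraries of a group came from separate litters, so the p-values measure the spread between these libraries, which may be technical.

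No specifier passed the test between knockouts and wild types in the model of genotype alone. Snai1, Snai2 and Sox10 were higher in all 4 knockout libraries than in both wild types, with folds of 1.37, 1.25 and 1.21 when both knockouts were averaged, and Tfap2c was lower in all 4, with a fold of 0.83. That makes 3 of 9 specifiers without overlap on the higher side, where 18.8% of the 14521 tested genes were, and 1 of 9 on the lower side, where 20.1% were. The remaining 5, Foxd3, Tfap2a, Tfap2b, Ets1 and Sox8, overlapped between knockouts and wild types. In bulk RNA of sorted cells, fewer cells of a type and less RNA per cell cannot be told apart, and this holds for every value below.

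**Figure D1:**
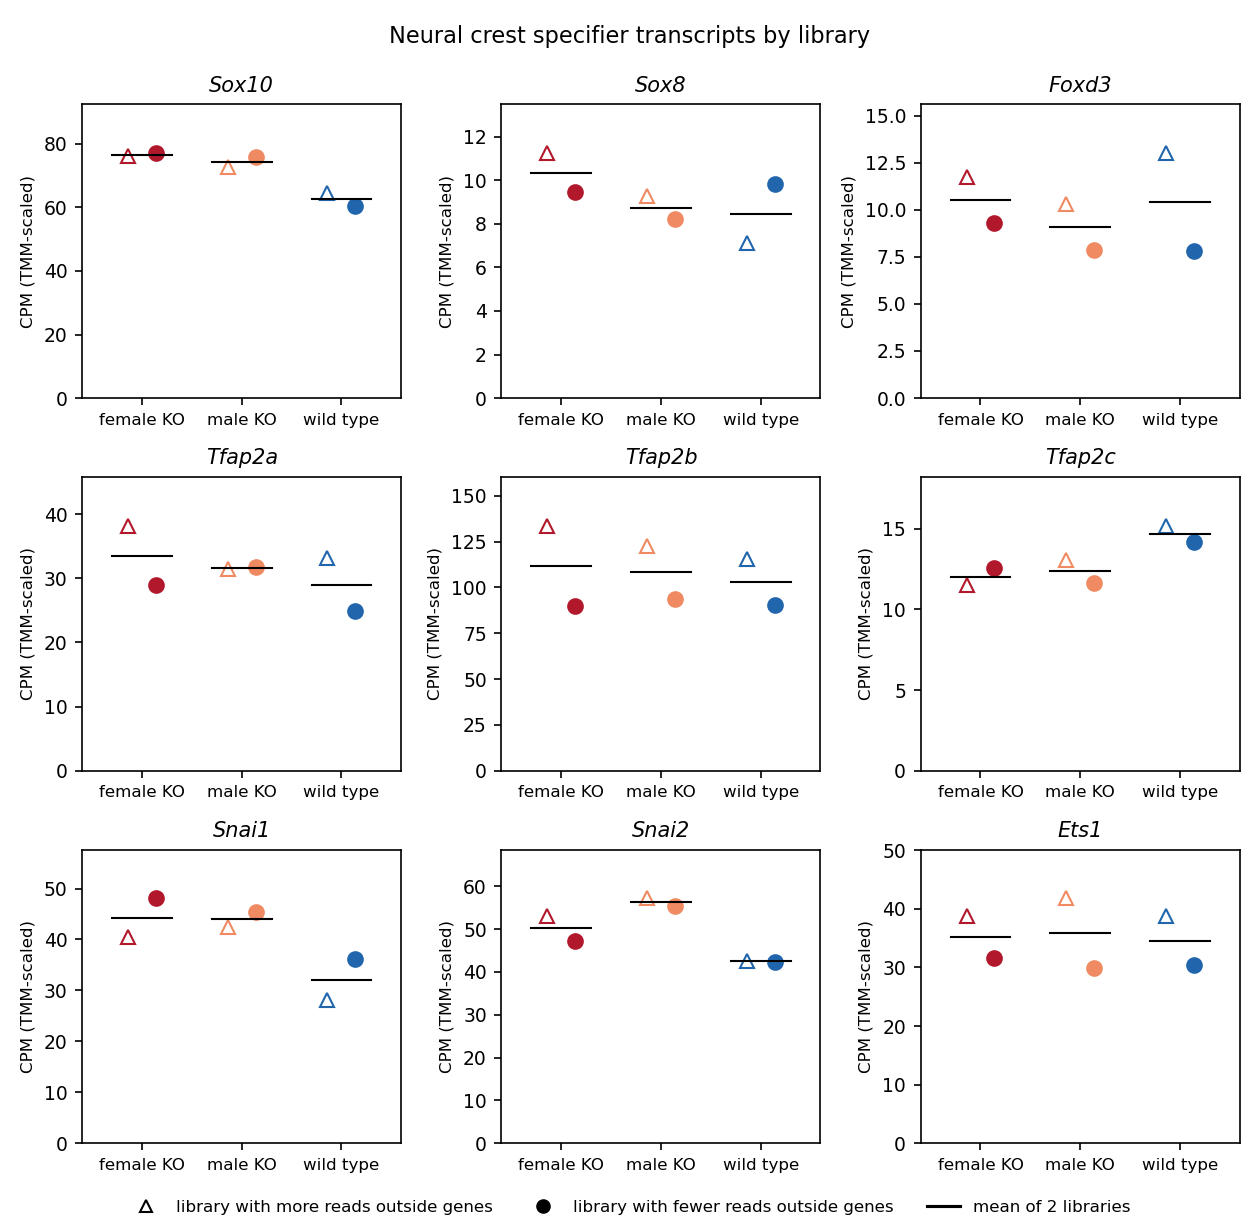
Level of each specifier in each library, in CPM on TMM-scaled library sizes, with every vertical axis starting at 0. Female knockouts, male knockouts and wild types run left to right; open triangles are the libraries with more reads outside genes, filled circles those with fewer, and bars are the mean of 2 libraries. Sox10, Snai1 and Snai2 lie above wild type in all 4 knockout libraries and Tfap2c below, while Tfap2b and Ets1 separate by symbol.

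Snai1 encodes a zinc-finger repressor that silences E-cadherin and other epithelial genes when crest cells leave the neural tube. It was at 48.1 and 40.4 CPM in female knockouts, 42.5 and 45.4 CPM in male knockouts and 36.2 and 28.0 CPM in wild types. The lowest knockout library was above the highest wild type, but the 2 wild types differed from each other by more than the 2 libraries of either knockout did on the log2 scale. The log2 difference from wild type was 0.46 (SE 0.16) in female knockouts and 0.45 (SE 0.16) in male knockouts, with edgeR adjusted p = 0.190 and 0.177. Averaged over both knockouts it was 0.46 (SE 0.14, adjusted p = 0.101), a fold of 1.37 with a 95% interval of 1.10 to 1.72. That average was a log2 difference of 0.66 when the first wild type was left out and 0.50 when the second female knockout was. Without the second wild type it was 0.27, and without the first female knockout or either male knockout it lay between 0.39 and 0.48. Whether it passed the threshold depended on which library was left out, and so did the number of all genes called.

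Of the 5 members whose start could be searched, only Snai1 held motifs of the specifiers' own families there. Windows of 300 bases, from 250 before to 50 after an annotated transcript start, were found for 5 of the 9 genes in RefSeq tables of build GRCm38.p6. The 5 motifs searched, on both strands, were the Snail-type E-box CAGGTG, the AP-2 palindrome GCCNNNGGC, the Sox core ACAAAG or ACAATG, the Ets core CCGGAAG and the forkhead core TGTTTAC. Of the 6 windows of these 5 genes (Tfap2a has 2), only that of Snai1 held any of them. It is shown because 3 of the 5 motifs occur in it, at chr2:167537945-167538244 on the plus strand, with the matches in capitals.

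Snai1: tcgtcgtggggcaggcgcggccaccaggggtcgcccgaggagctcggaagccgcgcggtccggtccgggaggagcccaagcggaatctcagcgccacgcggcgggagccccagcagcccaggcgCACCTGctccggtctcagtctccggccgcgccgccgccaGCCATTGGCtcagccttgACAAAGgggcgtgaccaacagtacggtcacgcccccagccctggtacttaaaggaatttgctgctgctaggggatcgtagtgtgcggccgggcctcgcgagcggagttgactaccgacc

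The E-box, read on the minus strand, begins 126 bases before the start, the AP-2 palindrome 87 bases before it and the Sox core 69 bases before it, and none of the 3 overlaps another. Among all 32851 windows of this length, 20.2% held the E-box, 16.6% the AP-2 palindrome, 28.6% a Sox core, 8.86% the Ets core and 3.65% the forkhead core. A match in letters is a description of the sequence and not evidence of binding.

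Snai2 (Slug), the second Snail-family repressor, is the classical marker of premigratory and migrating crest in chick and Xenopus, while mouse crest forms without it. It was at 47.3 and 53.1 CPM in female knockouts, 57.2 and 55.5 CPM in male knockouts and 42.3 and 42.6 CPM in wild types. The wild types were nearly equal and all knockouts lay above them, the male ones farther than the female ones. The log2 difference was 0.24 (SE 0.13, adjusted p = 0.309) in female knockouts, 0.41 (SE 0.13, adjusted p = 0.131) in male knockouts and 0.32 (SE 0.11, adjusted p = 0.120) for their average. On CPM without TMM scaling the first female knockout, at 44.4 CPM, fell between the wild types at 43.8 and 45.9 CPM, so the separation of Snai2 depends on the scaling. Sox10, Snai1 and Tfap2c stayed separate without it, but Sox10 narrowly. Its lowest knockout was then at 71.1 CPM and its highest wild type at 69.6 CPM. Sizes changed too. Without the scaling the log2 ratio of mean knockout to mean wild-type CPM was 0.15 for Sox10, 0.34 for Snai1 and 0.21 for Snai2. It was 0.05 for Tfap2a, 0.06 for Sox8, -0.39 for Tfap2c and -0.21 for Foxd3. For Tfap2b it was -0.02 and for Ets1 -0.08, both of which were above 0 with the scaling.

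Sox10 and Sox8 belong to the SoxE family of HMG-box factors. Sox10 keeps crest cells multipotent and later drives glial and melanocyte genes. It was at 77.0 and 76.2 CPM in female knockouts, 72.6 and 75.8 CPM in male knockouts and 60.4 and 64.7 CPM in wild types. No knockout library reached down to the wild types, and the 2 libraries of a group lay closer together than knockouts and wild types did. The log2 difference was 0.29 (SE 0.12, adjusted p = 0.234) in female knockouts, 0.25 (SE 0.12, adjusted p = 0.284) in male knockouts and 0.27 (SE 0.11, adjusted p = 0.159) for their average. Sox8, which overlaps in function with Sox10, was among the specifiers with the fewest reads, at 9.47 and 11.2 CPM in female knockouts, 9.27 and 8.23 CPM in male knockouts and 9.82 and 7.11 CPM in wild types. The wild types enclosed 3 of the 4 knockout values, and the averaged log2 difference was 0.17 (SE 0.19, adjusted p = 0.587).

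Tfap2a, Tfap2b and Tfap2c encode AP-2 factors, of which Tfap2a acts at the neural plate border and in specification and, in mice, is needed for closure of the face and cranial neural tube. Tfap2a was at 28.9 and 38.2 CPM in female knockouts, 31.4 and 31.8 CPM in male knockouts and 24.8 and 33.2 CPM in wild types. Tfap2b, which is expressed in facial mesenchyme, was at 89.9 and 134 CPM in female knockouts, 123 and 93.9 CPM in male knockouts and 90.6 and 115 CPM in wild types. Both overlapped between genotypes, and the averaged log2 differences were 0.17 (SE 0.16, adjusted p = 0.522) for Tfap2a and 0.09 (SE 0.19, adjusted p = 0.767) for Tfap2b. Tfap2c was the only specifier below wild type in every knockout library, at 12.54 and 11.5 CPM in female knockouts, 13.1 and 11.6 CPM in male knockouts and 14.2 and 15.2 CPM in wild types. Its log2 difference was -0.29 (SE 0.17, adjusted p = 0.345) in female knockouts, -0.25 (SE 0.17, adjusted p = 0.399) in male knockouts and -0.27 (SE 0.14, adjusted p = 0.258) for their average.

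Foxd3 encodes a forkhead repressor that holds crest progenitors in an undifferentiated state. It was at 9.27 and 11.8 CPM in female knockouts, 10.3 and 7.85 CPM in male knockouts and 7.79 and 13.0 CPM in wild types. Both wild types lay at the extremes and enclosed every knockout, and the averaged log2 difference was -0.09 (SE 0.23, adjusted p = 0.825). Ets1, an ETS-domain activator that in chick helps cranial crest to delaminate, was at 31.5 and 38.7 CPM in female knockouts, 41.8 and 29.9 CPM in male knockouts and 30.3 and 38.8 CPM in wild types. The ranges of all 3 genotypes overlapped, and its averaged log2 difference was 0.04 (SE 0.17, adjusted p = 0.905). The 95% intervals of the averaged fold ran from 0.65 to 1.36 for Foxd3 and from 0.78 to 1.35 for Ets1. With 2 libraries per genotype, folds anywhere within them stayed compatible with the data.

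**Figure D2:**
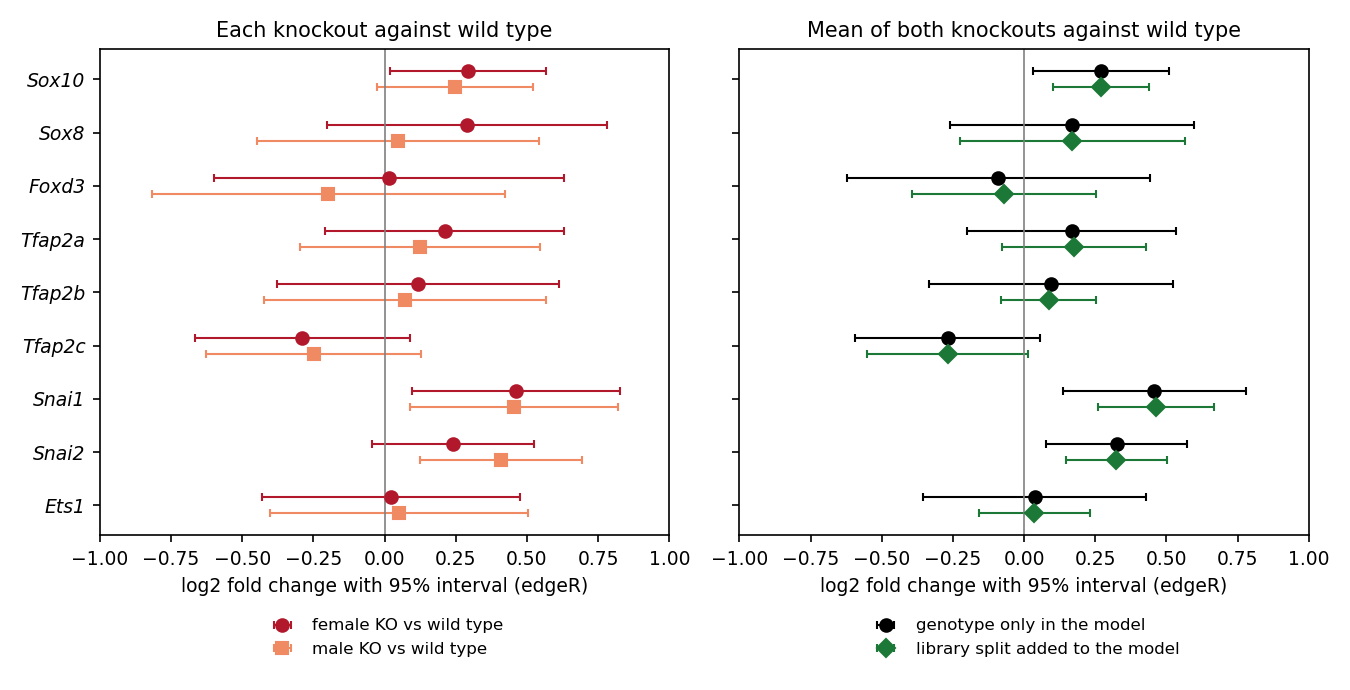
Log2 difference of each specifier from wild type with its 95% interval. The left panel gives female knockouts (circles) and male knockouts (squares) from the model of genotype alone; the right panel gives the average of both knockouts without (black circles) and with (green diamonds) the library split in the model. With the split the estimates stay in place and every interval narrows, that of Sox8 least, and those of Snai1, Snai2 and Sox10 lie above 0 in both models.

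Counted over the 9 specifiers, edgeR called 0 in female knockouts against wild types, where it called 1.12% of all tested genes. In male knockouts it called 0, where the share was 2.34%, and for the average of both knockouts 0, where the share was 5.11%. At an unadjusted p below 0.05 the counts were 2 specifiers in female knockouts (Sox10 and Snai1; 19.6% of all genes), 2 in male knockouts (Snai1 and Snai2; 20.2%) and 3 for the average (26.1%). DESeq2 also called 0 specifiers in female knockouts (3.58% of all genes), 0 in male knockouts (5.47%) and 0 for the average (8.10%). At an unadjusted p below 0.05 it gave 1 specifier in female knockouts (17.2% of all genes), 2 in male knockouts (17.8%) and 2 for the average (23.4%). The median log2 difference of the 9 for the average of both knockouts was 0.17, and 7 were positive; the median over all tested genes was 0.01.

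With the library split in the model the estimates barely moved but their errors shrank. For the average of both knockouts 3 of the 9 specifiers then passed the test, all higher, where 16.3% of all tested genes were called higher and 32.6% in either direction. Snai1 had adjusted p = 0.00583 (log2 difference 0.46, SE 0.09), Snai2 0.0141 (0.32, SE 0.08) and Sox10 0.0229 (0.27, SE 0.07). Female knockouts alone gave Snai1 (adjusted p = 0.0142) and Sox10 (0.0370), where 12.2% of genes were called higher and 23.3% in either direction. Male knockouts alone gave Snai2 (0.0136) and Snai1 (0.0139), where 12.0% were called higher and 24.7% in either direction. The share of specifiers called for the average, 3 of 9, was thus near that of all genes called in either direction. These calls also rest on single libraries and did not all hold with a library left out. With each library left out in turn, the averaged log2 difference ranged from 0.35 to 0.57 for Snai1. It ranged from 0.25 to 0.37 for Snai2 and from 0.20 to 0.32 for Sox10. For Snai1 and Snai2 it was lowest without the second wild type. The share of all genes called in these fits was not determined, so counts of specifiers called in them cannot be weighed against it.

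Female and male knockouts were also set against each other directly. Of the 9 specifiers 0 were called, where 0.0344% of all tested genes were, with 0 at an unadjusted p below 0.05 (1.72% of all genes). DESeq2 called 0 (0.0275% of all genes), with 0 at an unadjusted p below 0.05 (0.943%). Adding the library split to the edgeR model also gave 0 calls among the specifiers, where 0.0482% of all tested genes were called. The largest log2 difference, female over male, was 0.24 (SE 0.22) for Sox8, followed by 0.22 (SE 0.27) for Foxd3 and -0.17 (SE 0.12) for Snai2. The 95% intervals of the female over male fold ran from 0.78 to 1.29 for Snai1, from 0.85 to 1.25 for Sox10 and from 0.76 to 1.78 for Foxd3. These widths do not show that the specifiers are equal in both knockouts.

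Some specifiers differed by the library split. Tfap2b, Ets1 and Foxd3 were higher in the library with more reads outside genes in 3 of 3 genotypes, and their values in the 3 libraries with more did not overlap those in the 3 with fewer. Of all tested genes 9.48% showed such a gap in this direction. In the edgeR model holding both genotype and split, the same 3 of 9 were called higher, where 6.28% of all tested genes were called higher and 14.4% in either direction. Tfap2b averaged 124 ± 9.13 CPM in the 3 libraries with more and 91.5 ± 2.12 CPM in the 3 with fewer (SD, n = 3 each), a log2 difference of 0.44 (SE 0.07, adjusted p = 0.0166). Ets1 averaged 39.8 ± 1.74 CPM in the libraries with more and 30.6 ± 0.829 CPM in those with fewer (SD, n = 3 each), a log2 difference of 0.38 (SE 0.08, adjusted p = 0.0228). Foxd3 averaged 11.7 ± 1.36 CPM in the libraries with more and 8.30 ± 0.838 CPM in those with fewer (SD, n = 3 each), a log2 difference of 0.49 (SE 0.14, adjusted p = 0.0428).

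The other specifiers differed less by this split. Tfap2a followed it in 2 of 3 genotypes (log2 difference 0.27, SE 0.10, adjusted p = 0.118), the 2 male knockouts being nearly equal. Snai1 was lower in the library with more reads outside genes in 3 of 3 genotypes, by a log2 difference of -0.23 (SE 0.08, adjusted p = 0.0886), but its values overlapped across genotypes. Snai2 was higher with more reads outside genes in 3 of 3 genotypes, but only by a log2 difference of 0.08 (SE 0.07, adjusted p = 0.514). Sox10 differed little between both kinds of library, with a log2 difference of 0.01 (SE 0.07). Sox8 had no steady direction, its wild types differing by -0.46 and its female and male knockouts by 0.24 and 0.17 on the log2 scale. The calls of Tfap2b, Ets1 and Foxd3 did not hold in every fit with a library left out. In these fits the log2 difference stayed between 0.37 and 0.49 for Tfap2b, 0.32 and 0.42 for Ets1, and 0.37 and 0.57 for Foxd3. It ranged from 0.19 to 0.41 for Tfap2a and from -0.31 to -0.16 for Snai1. What the split stands for (extraction, litter, dissection or sequencing) is not given in the labels and was not tested.

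**Figure D3:**
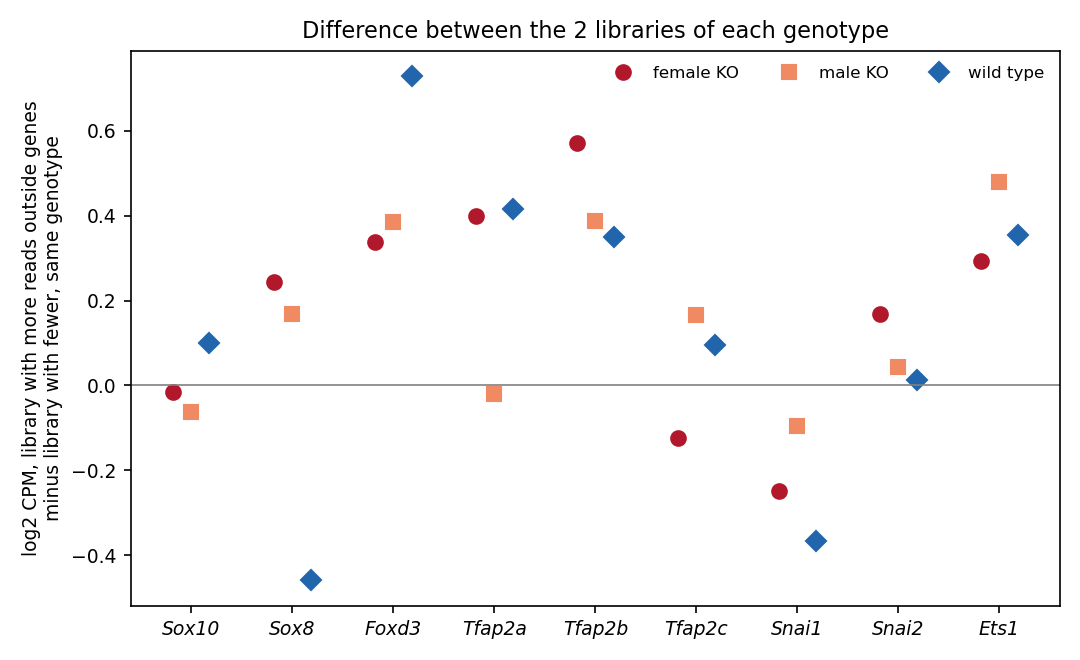
Difference in log2 CPM between the 2 libraries of each genotype, the one with more reads outside genes minus the one with fewer, for female knockouts (circles), male knockouts (squares) and wild types (diamonds). Tfap2b, Ets1, Foxd3 and, by less, Snai2 lie above 0 in all 3 genotypes and Snai1 below 0, while Sox10 stays near 0.

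Foxd3 and Tfap2b, both called higher with more reads outside genes, have start windows to set side by side. That of Foxd3 lies at chr4:99656049-99656348 on the plus strand and that of Tfap2b at chr1:19211804-19212103 on the plus strand (RefSeq, GRCm38.p6). They are shown because they differ in composition, at 65.7% G and C in Foxd3 and 48.3% in Tfap2b, and because neither holds any of the 5 motifs, hence no capitals.

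Foxd3: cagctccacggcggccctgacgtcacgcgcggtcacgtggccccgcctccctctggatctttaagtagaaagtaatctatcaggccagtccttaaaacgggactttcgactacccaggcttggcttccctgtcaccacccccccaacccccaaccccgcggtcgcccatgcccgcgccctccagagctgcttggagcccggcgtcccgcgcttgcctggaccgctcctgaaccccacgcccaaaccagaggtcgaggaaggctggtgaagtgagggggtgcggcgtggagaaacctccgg

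Tfap2b: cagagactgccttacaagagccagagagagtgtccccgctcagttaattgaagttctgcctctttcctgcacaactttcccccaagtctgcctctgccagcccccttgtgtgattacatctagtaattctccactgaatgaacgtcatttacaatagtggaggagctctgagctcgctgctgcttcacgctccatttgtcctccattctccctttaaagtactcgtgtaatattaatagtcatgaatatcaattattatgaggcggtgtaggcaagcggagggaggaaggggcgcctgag

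The Foxd3 window holds 25 CpG dinucleotides and the Tfap2b window 8, beside 34 in the window of Snai1. That no motif was found says only that these letters are absent from these 300 bases.

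The specifiers differed widely in how far the 2 libraries of a genotype lay apart. After removing genotype, the SD of log2 CPM was 0.36 for Foxd3, 0.32 for Tfap2b and 0.27 for Ets1, but 0.09 for Tfap2c, 0.07 for Snai2 and 0.05 for Sox10, beside a median of 0.18 over all tested genes. Counting error alone gives 0.12 for Foxd3, 0.04 for Tfap2b and 0.06 for Ets1, and 0.10, 0.05 and 0.04 for Tfap2c, Snai2 and Sox10. The spread of the last 3 was thus close to that given by their read counts alone. Removing the library split as well brought Tfap2b to 0.08, Ets1 to 0.07 and Foxd3 to 0.15, beside a median of 0.11 over all tested genes. Sox8, Sox10 and Tfap2c did not fall, Sox8 being at 0.27 with the split removed and 0.22 without.

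**Figure D4:**
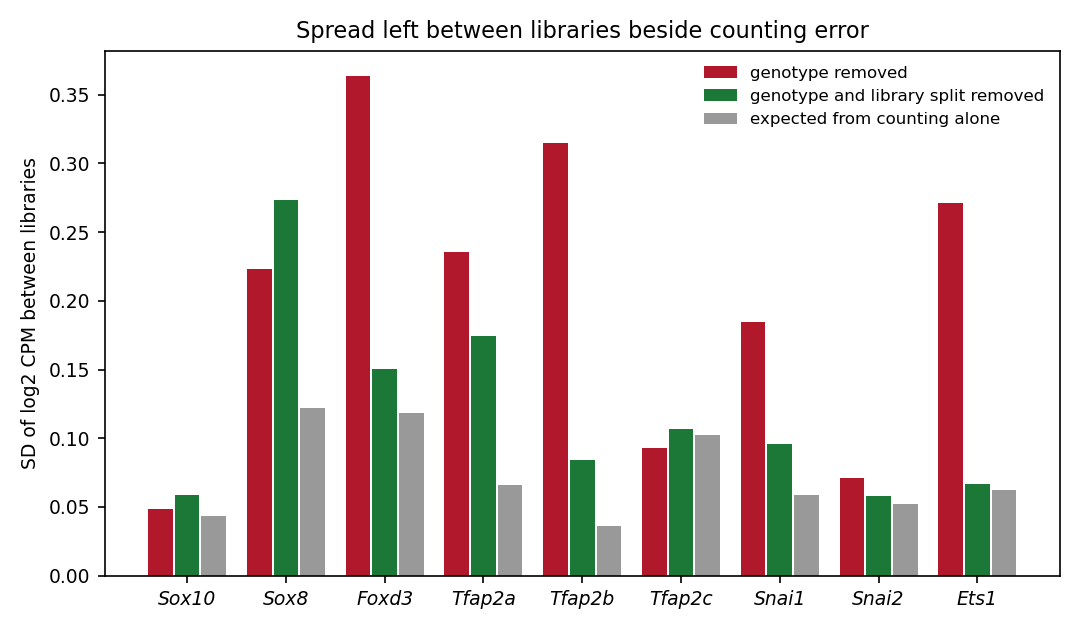
SD of log2 CPM between libraries for each specifier after removing genotype (red), after removing genotype and the library split (green), and as given by counting error alone (grey). Foxd3, Tfap2b and Ets1 lose most of their spread with the split, and Sox10, Snai2 and Tfap2c are close to counting error from the start.

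Genes with the most similar profile over the 6 libraries were taken from 11492 tested genes averaging at least 5 CPM, by Pearson's r of log2 CPM. These r values describe 6 libraries that share genotype and library split, and among so many genes high values are found for any profile. For Sox10 the closest were Rarb, a retinoic acid receptor, Msn (moesin) and Snx7 (r between 0.9957 and 0.9978). Snai1 was closest to Ttc4, the small GTPase gene Rhoc and Serf2, and Snai2 to Gng4, Rai14 and Ado. Tfap2c was closest to Shroom3, which shapes epithelial cells, the myelin gene Mbp and the homeobox gene Lhx8. Foxd3 was closest to Slitrk3, Gucy1a2 and the Wnt receptor gene Fzd7, Tfap2a to Afap1l2, 1200011I18Rik and the splicing factor gene Mbnl1, and Tfap2b to 1700020I14Rik, Ascc3 and Steap2. Ets1 was closest to Lpp, the kinase gene Lrrk2 and Slc26a11. Sox8 had the least similar neighbours, Xkr8, Nub1 and Exoc4 (r between 0.939 and 0.956).

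Close relatives of the specifiers were measured alongside them. Of 16 family relatives, 13 passed the filter on low counts. Of these 0 rose and 2 fell in the average of both knockouts, where 5.11% of all tested genes were called in either direction. Scrt1, a Snail-related repressor of neurons, fell by 1.38 (SE 0.22, edgeR adjusted p = 0.0145) and Scrt2 by 0.94 (SE 0.22, adjusted p = 0.0430) on the log2 scale. Scrt1 was at 24.4 and 41.0 CPM in female knockouts, 19.6 and 27.6 CPM in male knockouts and 59.8 and 84.8 CPM in wild types. Its direction is thus opposite to that of Snai1 and Snai2, neither of which passed in this model. The third Snail gene, Snai3, had at most 0.204 CPM. Sox9, the SoxE factor of cartilage, was at 146 and 193 CPM in female knockouts, 170 and 157 CPM in male knockouts and 148 and 134 CPM in wild types, with a log2 difference of 0.24 (SE 0.14, adjusted p = 0.299). Among ETS genes, Ets2 had a log2 difference of 0.47 (SE 0.13, adjusted p = 0.0832), Fli1 of 0.30 (SE 0.11, adjusted p = 0.147), and Etv1 of -0.37 (SE 0.15, adjusted p = 0.166).

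Genes that act upstream of the specifiers or beside them were counted in the same way, where 5.11% of all tested genes were called in either direction. Of 14 neural plate border regulators, 0 rose and 3 fell in the average of both knockouts, with a median log2 difference of 0.15. Among them Gbx2 fell by 1.07 (SE 0.23, adjusted p = 0.0365) and Zic1 by 0.78 (SE 0.18, adjusted p = 0.0436) on the log2 scale. Both are also expressed in the neural tube. Gbx2 was at 7.18 and 8.79 CPM in female knockouts, 5.79 and 11.1 CPM in male knockouts and 17.8 and 16.8 CPM in wild types. Of 20 other crest specifiers and regulators, 2 rose and 1 fell, with a median of 0.21. Prdm1, a zinc-finger regulator, rose by 1.01 (SE 0.20, adjusted p = 0.0290) and Id3, a BMP-responsive inhibitor of bHLH factors, by 0.85 (SE 0.20, adjusted p = 0.0490), while Lmx1a, a roof-plate factor, fell by 1.32 (SE 0.19, adjusted p = 0.00931).

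Genes known to act downstream of the specifiers were counted against the same share of 5.11%. Of 20 genes of the epithelial to mesenchymal transition and migration, 1 rose and 2 fell, with a median log2 difference of 0.01. Twist2, a bHLH factor of mesenchyme, rose by 0.90 (SE 0.13, adjusted p = 0.00950). The chemokine receptor gene Cxcr4 fell by 0.65 (SE 0.15, adjusted p = 0.0447) and the semaphorin gene Sema3f by 0.49 (SE 0.12, adjusted p = 0.0490). Cdh1, the E-cadherin gene that Snail factors repress, was at 3.46 and 4.07 CPM in female knockouts, 2.73 and 3.29 CPM in male knockouts and 2.03 and 1.79 CPM in wild types. It was thus higher in all 4 knockout libraries, as Snai1, Snai2 and 18.8% of all tested genes were. Its log2 difference of 0.82 (SE 0.24) did not pass (edgeR adjusted p = 0.0875). Of 11 tested epithelial markers, Cdh1 among them, 6 were positive for the average of both knockouts, with a median log2 difference of 0.07. Of 18 Sox10 lineage targets, 0 rose and 2 fell, with a median of -0.03. Among them was Pou3f1 (log2 difference -1.05, SE 0.16, adjusted p = 0.0121), a factor of promyelinating Schwann cells that the central nervous system also expresses. With the library split in the model, the counts were 2 higher and 4 lower of 14 border regulators, 7 and 3 of 20 other regulators, 7 and 4 of 20 transition genes, 1 and 3 of 18 Sox10 targets, and 2 and 3 of 13 relatives. That model called 32.6% of all tested genes in either direction.

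**Figure D5:**
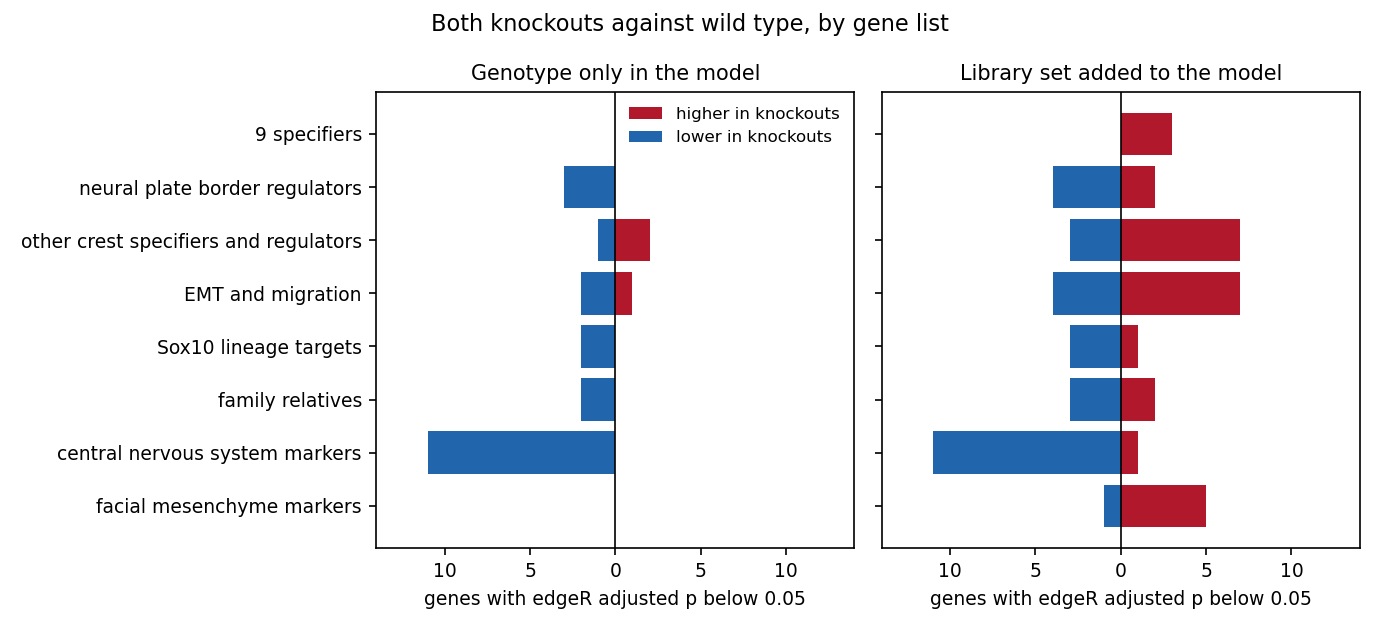
Number of genes of each list called higher (right of 0) or lower (left of 0) in the average of both knockouts against wild type, without (left panel) and with (right panel) the library split in the model. Of the 9 specifiers 0 were called without it and 3 with it, all higher. Of 13 central nervous system markers 11 were lower in both, and 1 was higher with the split in the model. Of all tested genes 5.11% were called in either direction without it and 32.6% with it.

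Markers of other cell types were measured in the same sorted cells, and those of the central nervous system were lower in knockouts. The marker lists were chosen with earlier results of these data known. For the average of both knockouts 5.11% of all tested genes were called in either direction and 4.04% lower, beside which the counts below stand. Of 13 tested central nervous system markers, 0 rose and 11 fell. The 14 listed summed to between 138 and 172 CPM in female knockouts, 151 and 164 CPM in male knockouts and 307 and 372 CPM in wild types. Facial mesenchyme markers gave 0 calls of 12, with 11 positive and a median log2 difference of 0.25, and their sum was between 2555 and 2657 CPM in female knockouts, 2686 and 3101 CPM in male knockouts and 2801 and 2919 CPM in wild types. Schwann and glial markers, among which Sox10 is usually counted, gave 0 higher and 1 lower of 11, with sums between 396 and 469 CPM in female knockouts, 377 and 461 CPM in male knockouts and 385 and 427 CPM in wild types. Sensory and autonomic neuron markers gave 1 higher and 2 lower of 11, with sums between 1420 and 1434 CPM in female knockouts, 1002 and 1784 CPM in male knockouts and 1578 and 1695 CPM in wild types. Endothelial markers, which matter for Ets1, gave 0 of 10, with sums between 25.9 and 28.2 CPM in female knockouts, 22.3 and 25.5 CPM in male knockouts and 21.0 and 23.2 CPM in wild types. Epithelial markers, which matter for Tfap2a, Tfap2c and Cdh1, gave 0 of 11, with sums between 20.4 and 21.5 CPM in female knockouts, 25.1 and 26.8 CPM in male knockouts and 16.5 and 26.0 CPM in wild types. Melanocyte markers gave 0 of 5, with sums between 49.4 and 50.9 CPM in female knockouts, 47.1 and 56.3 CPM in male knockouts and 44.3 and 60.5 CPM in wild types. Macrophage and leukocyte markers gave 0 of 8, with a median log2 difference of -0.60. The 10 listed summed to between 7.18 and 10.6 CPM in female knockouts and 8.59 and 9.05 CPM in male knockouts. In wild types the sum was between 13.3 and 15.2 CPM. These low sums did not overlap between knockouts and wild types, where 20.1% of all tested genes were lower in knockouts without overlap. Erythroid markers gave 0 of 4, with sums between 343 and 363 CPM in female knockouts, 273 and 1170 CPM in male knockouts and 261 and 427 CPM in wild types. The second male knockout library stood apart with the highest of these sums, and 2 of the 8 listed erythroid genes were at 0 reads in every library. The ribosomal precursor Rn45s was at 35305 and 29815 CPM in female knockouts, 50820 and 32374 CPM in male knockouts and 9028 and 3559 CPM in wild types. The part of these markers and of Rn45s in the values of Snai1, Snai2, Sox10 and Tfap2c was not tested.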

How the data were processed

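RNA was measured in 6 libraries of sorted cranial neural crest, 2 for each of female knockouts, male knockouts and wild types. The deposited table holds raw read counts per gene that the authors made before deposit. The submitters' processing notes name Trimmomatic, TopHat2, Bowtie2, SAMtools, bedtools and HTSeq and the build mm9, without versions or roles; strand setting and annotation are not given in the sources used here. Its summary lines (reads outside genes, ambiguous, not unique) made up 38.6 to 45.6% of the reads in a library and stayed out of library sizes and tests. Peak lists of histone marks and UTX were not used here, since no annotation of their build was at hand.

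Genes were filtered with filterByExpr, leaving 14521 of 23366, scaled by TMM and tested with the quasi-likelihood F test of edgeR 4.0.16 in R 4.3.3, in 1 model of 3 genotype means over all 6 libraries. The p-values were adjusted by the Benjamini-Hochberg method over all genes tested, with a threshold of 0.05, and the intervals are 95% intervals from the same model. DESeq2 1.42.0 was an alternative, beside other size factors, no filter, only the groups compared, a replicate block, each library left out in turn, and the library split as an added term. That split was made at the widest gap in the share of reads outside genes. The 9 specifiers, the gene lists and the tests were chosen with earlier results of these data known. Named genes are all 9 specifiers, all tested family relatives, up to 4 genes of each list with the smallest p for the average of both knockouts, and the 3 genes most alike to each specifier; some genes that the rule names are not reported here. The 2 libraries of a group differed by far more than sampling noise (chi-square per degree of freedom between 18.1 and 24.1), so neither is a copy of the other and each was counted as a sample; this does not show that they came from separate embryos. The 95% intervals include the spread between libraries as the edgeR model estimated it. The counting error given beside the SDs of log2 CPM comes from the read counts alone. The fitting was tested on simulated data with larger changes than those of the specifiers and with no library split. That test does not show whether differences of their size would be called. Levels were not compared between genes, since no transcript lengths were at hand. The windows around transcript starts come from RefSeq, build GRCm38.p6, and no coordinates of that build were set beside the counts.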

Additional observations from a re-analysis of the deposited data

How the results depend on the processing

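The model of genotype alone called 163 genes in female knockouts, 340 in male knockouts and 742 for their average, and 5 between the knockouts. DESeq2 called 520, 764 and 1130 against wild types, and between the knockouts 4, of which 2 were higher in female knockouts (1 of 5 in edgeR). Fits on only the groups compared called 33 in female and 938 in male knockouts. With the replicate number as a block the fit called 329 in female knockouts. Samples with the same number deviated together between female knockouts and wild types (correlation 0.426), where they also share the side of the library split, and oppositely between male knockouts and wild types (-0.237) and between female and male knockouts (-0.231), so the number was not taken to pair the samples. With the library split as a term the calls were 3384, 3589 and 4735 against wild types. With each library left out in turn, the calls ranged from 60 to 1048 in female knockouts, from 2 to 990 in male knockouts, from 215 to 2212 for their average and from 5 to 9 between the knockouts.

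Of the 9 specifiers, the split as a term called 2 in female knockouts, 2 in male knockouts and 3 for the average. For fits that leave out a library beside the split, the share of all genes called was not determined. Their counts of specifiers, given next, therefore have no background to be read against, and no conclusion is drawn from them. Leaving out a library in the model of genotype alone called 0 to 1 for the average; leaving out a library beside the split, chosen after seeing the data, called 0 to 3 in female knockouts, 0 to 4 in male knockouts and 0 to 4 for the average.

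Some signs turned. With each library left out in turn, the log2 difference of female knockouts from wild types ranged from -0.30 to 0.41 for Foxd3, -0.027 to 0.41 for Tfap2a, -0.22 to 0.38 for Tfap2b and -0.16 to 0.19 for Ets1. For male knockouts it ranged from -0.52 to 0.20 for Foxd3, -0.066 to 0.33 for Tfap2a, -0.13 to 0.26 for Tfap2b, -0.21 to 0.28 for Ets1 and -0.18 to 0.30 for Sox8. For the average it ranged from -0.41 to 0.31 for Foxd3, -0.024 to 0.37 for Tfap2a, -0.078 to 0.26 for Tfap2b, -0.13 to 0.21 for Ets1 and -0.064 to 0.42 for Sox8. Between female and male knockouts it ranged from -0.12 to 0.11 for Snai1, -0.25 to 0.23 for Ets1, -0.14 to 0.27 for Tfap2a, -0.28 to 0.30 for Tfap2b and -0.12 to 0.045 for Tfap2c, and the replicate block gave -0.00099 for Snai1. The cause of these changes was not tested. With 2 libraries per genotype, each fit without one rests on a lone library assumed to vary like the others.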
